A study of Mus musculus with 3 samples.

Results

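Krt5, Krt14, Krt15, Trp63 and Trim29 are genes of the basal layer of stratified squamous epithelium, and their RNA was measured in 3 mouse lung samples. The genes were chosen by name: every probe set carrying 1 of these symbols in any of the authors' deposited comparison tables was taken, which gave 7 probe sets for 5 of the 2944 genes named there. Krt14 had 3 probe sets and each other gene had 1. Because those tables list only probe sets past 2-fold between a pair of arrays, a probe set could be named only if it differed somewhere, and the differences below are descriptions.

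The study placed labelled RNA from 3 lungs on 1 Affymetrix array each, from mice 16 weeks old. The depleted lung came from a KA/KA-Lori-Ikkα mouse that had received a macrophage depletion treatment; its tissue was labelled as somewhat inflamed, with no tumour seen. The SCC lung came from a KA/KA-Lori-Ikkα mouse without that treatment and mixed squamous cell carcinoma (SCC) with tissue bordering the tumour. The wild type lung was normal tissue from a wild type mouse. In this line, known from earlier work, IKKα (gene Chuk), which signals to NF-kB, is replaced by a form without kinase activity, and a transgene driven by the promoter of loricrin, a late epidermal differentiation gene, supplies IKKα in the skin. Both mutant mice carry these alleles, so the depleted and SCC lungs differ by label in treatment and in the presence of a tumour, and by the sex-linked genes given below also in sex, with the depleting agent not given in the sources used here. Chuk was not among the named genes and is not analysed here. Each group had 1 array, so no value has an error and no test was made.

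Basal cells are the dividing cells that sit on the basement membrane of stratified epithelia and of the larger airways. Krt5, a type II keratin, pairs with Krt14, a type I keratin, to form their main intermediate filaments, and Krt15 is a further type I keratin of basal cells. Trp63 encodes p63, a transcription factor of the p53 family that is required to form stratified epithelia and is used, together with Krt5, to recognise squamous carcinoma of the lung. Trim29 encodes a tripartite motif protein found in basal and squamous epithelium and also reported in alveolar macrophages of mice.

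One promoter is shown because p63 is known to act on the Krt5 gene and because Krt5 and Trp63 were both bright on the SCC array alone. It is the stretch of 250 bases before the Krt5 start site, from RefSeq on build GRCm38.p6, chr15:101712906-101713155, minus strand, written 5′ to 3′.
Krt5: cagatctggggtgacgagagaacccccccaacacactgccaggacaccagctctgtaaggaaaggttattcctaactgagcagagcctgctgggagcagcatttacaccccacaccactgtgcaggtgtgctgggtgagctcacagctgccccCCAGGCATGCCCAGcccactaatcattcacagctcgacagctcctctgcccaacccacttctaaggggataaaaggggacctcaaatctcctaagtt
Capitals mark the 1 match to a loose form of the p53 family site, CNNG repeated after a gap of 6 bases, which reads the same on both strands. Such a match is common, since 63.5% of 32851 mouse promoter stretches of this length hold one. The letters TATAAA, GCCNNNGGC (the AP-2 core), TGANTCA (AP-1) and GGGCGG (the Sp1 core), searched on both strands, were not in the stretch. They occur in 12.4%, 13.7%, 6.75% and 32.7% of the stretches. The RefSeq window listed for Krt14 has its start site 1480 bases inside the annotated gene and is not shown.

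The array medians were 127, 124 and 128 in depleted, SCC and wild type lung, and the 25th percentiles 35.0, 35.5 and 34.8. Intensities below that percentile are called dim. A difference whose dimmer side is dim is given against the percentile as a lower bound ("at least"). Such a value is for the deposited intensities without further scaling and need not cover the authors' deposited ratios, several of which are smaller. The bacterial hybridization controls had median intensities of 2289.9 and 2050.4 in depleted and SCC lung, against 947 in wild type lung. Scaling the arrays to equal control medians moved the median of all probe sets to -1.17 (log2) for SCC minus wild type and -1.31 for depleted minus wild type. Without that scaling these medians were -0.041 and -0.022. The lungs were not alike in sex-linked genes. Xist, the RNA of the inactive X chromosome, had intensities of 133, 15608 and 188 in depleted, SCC and wild type lung. The Y-linked gene Ddx3y read 1470, 59.7 and 1461, and Eif2s3y, Kdm5d and Uty, also Y-linked, were dim in SCC lung alone. By these genes the SCC array alone came from a female mouse, so in both comparisons that use it sex cannot be told apart from the labelled differences.

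The comparison of SCC lung with wild type lung addressed how mutant lung with carcinoma differs from normal lung. All 7 probe sets were at least 2-fold brighter in the SCC lung, where 13.7% of all 45037 non-control probe sets were. Among the 3858 named probe sets the share was 38.3%, and 14.4% of all and 37.8% of the named probe sets were dimmer there by that much. The choice of genes rests on this comparison, so nothing is read from the count. The median log2 difference over the 5 genes was 4.55, which is the value of Krt15 over a dim wild type reading, and 3.89 with dim values set to the 25th percentile. Over all 2944 named genes these medians were -0.026 and -0.022. In whole lung RNA, more cells of a type and more RNA per cell cannot be told apart, here or below.

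The basal keratin pair had the largest differences of the 5 genes. Krt5 had an intensity of 66.4 in depleted lung, 7347 in SCC lung and 106 in wild type lung. It was bright in the SCC lung alone, 69.5-fold above wild type lung (log2 6.12), where the authors' deposited table has 18.0-fold. Krt14 was read by 3 probe sets that differed in size but not in direction. Probe set 1423935_x_at read 7.11, 15242 and 31.3 in depleted, SCC and wild type lung, and probe set 1460347_at read 6.46, 11127 and 20.1. Both were dim in depleted and wild type lung and bright in SCC lung, at least 438.5-fold and at least 320.2-fold above wild type lung, where ratios of 192 and 152 stand in the authors' deposited table. The third probe set, 1455573_at, read 21.1, 193 and 13.1, also highest in the SCC lung, at least 5.55-fold above wild type lung (2.32-fold in the authors' deposited table). What sets this probe set apart from the others of Krt14 was not tested. The suffix _x_at marks a probe set whose probes may also bind similar genes, and type I keratins are alike in sequence, so single keratin values are uncertain.

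Krt15 showed the same direction on a weaker signal. Its intensities were 5.13, 179.6 and 7.69 in depleted, SCC and wild type lung. Only the SCC value passed the array median, and the difference from wild type lung was at least 5.17-fold. A ratio of 2.62 stands in the authors' deposited table, and the unbounded ratio of the intensities is 23.3, 8.90 times as large. For Krt15, then, the size of the difference depends on how dim values are treated, while its direction in this comparison was the same in each treatment.

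Trp63, the transcription factor of the group, had intensities of 87.6, 991 and 96.5 in depleted, SCC and wild type lung. Its wild type value was below the array median but not dim, and the SCC value was 10.3-fold above it (log2 3.36). The authors' deposited table has 13.6-fold, and Trp63 was the 1 probe set of the 7 for which that table gives a larger fold than the intensities. Trim29 read 263, 1492 and 101 in the same order. It was 14.8-fold higher in the SCC lung than in wild type lung (log2 3.89), against 6.30-fold in the authors' deposited table. Trim29 differed from the other 4 genes in its depleted lung value, the only one of the 7 probe sets there above the array median.

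**Figure D1:**
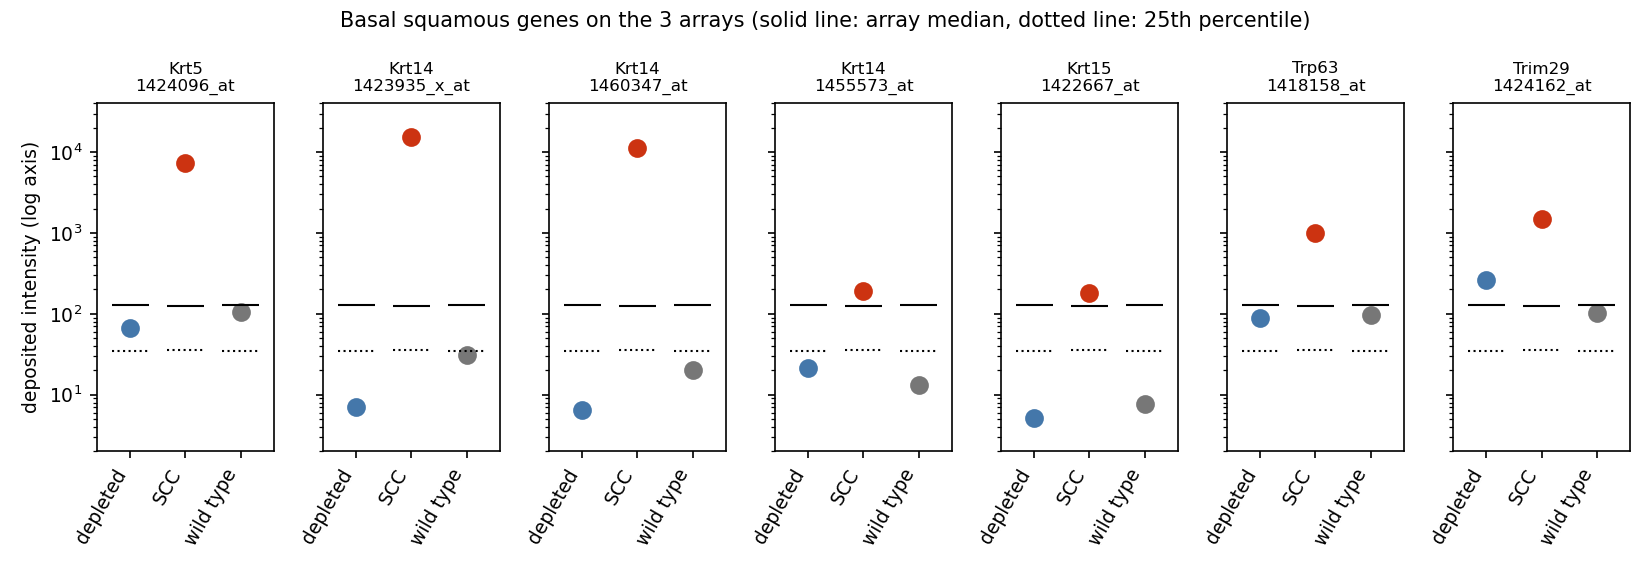
Deposited intensity of each of the 7 probe sets (log axis) on the depleted, SCC and wild type arrays, 1 point per array, with the array median as a solid line and the 25th percentile as a dotted line. Every probe set is brightest on the SCC array, and on the depleted array Trim29 alone lies above the median, at 263.

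By the size of the difference between SCC and wild type lung, the 7 probe sets held places 9 and 13 (Krt14), 65 (Krt5), 220 (Krt15), 399 (Trim29), 404 (the third Krt14 probe set) and 663 (Trp63) from the top of 45037. These places use the intensities as deposited, and those of Krt14 and Krt15 rest on dim wild type values. Scaled to the hybridization controls, the log2 differences of Krt5, Trp63 and Trim29 were 4.99, 2.23 and 2.75, each still past 2-fold.

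Depleted lung was set against SCC lung to see what differs after a treatment labelled as macrophage depletion, which also sets a lung with no observed tumour against a sample that held one, and a male against a female mouse. These cannot be told apart here. Of the 8 named macrophage genes described further on, 5 were at least 2-fold lower and 1 was higher in the depleted lung. In depleted lung all 7 probe sets were dimmer by 2-fold or more, as were 12.7% of all non-control probe sets (27.9% of the named ones), while 13.2% of all (29.4% of the named ones) were brighter. This comparison too was part of how the genes came to be named. It shares the SCC array with the comparison above, so the single high array enters both. The median log2 difference over the 5 genes was -5.13, the value of Krt15 with its dim depleted reading, and -3.50 with dim values set to the 25th percentile. Over all named genes these medians were 0.26 and 0.23.

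Krt5 was 111-fold lower in the depleted lung than in the SCC lung (log2 -6.79), where the authors' deposited table has 21.4-fold. The Krt14 probe sets were at least 435.7-fold, 318.1-fold and 5.52-fold lower, with 197-fold, 151-fold and 2.73-fold in the authors' deposited table. Krt15 was at least 5.13-fold lower, a bound that its dim depleted reading sets. The unbounded ratio of its intensities is 35.0, and the authors' deposited table has 5.30. All of these keratin probe sets were below the array median in the depleted lung. Trp63 was 11.3-fold lower (log2 -3.50; 13.6-fold in the authors' deposited table). Of Krt5, Trp63 and Trim29, which were not dim on any array, Trim29 had the smallest difference, 5.67-fold lower (log2 -2.50; 3.52-fold in the authors' deposited table).

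Depleted lung was then set against wild type lung, for the distance of treated mutant lung from normal. By a 2-fold rule 1 of the 7 probe sets was higher in the depleted lung, 2 were lower and 4 did not differ by that much. Over all non-control probe sets 11.6% were higher and 11.8% lower, and over the named ones 24.2% and 21.7%. Both probe sets that were lower belonged to Krt14 and were dim on both arrays (7.11 against 31.3, and 6.46 against 20.1), so their order carries no information. The authors' deposited table has them within 1.03-fold and 1.01-fold of wild type.

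Krt5, with 66.4 in depleted lung against 106 in wild type lung, was 1.59-fold lower and below the median on both arrays. Trp63 (87.6 against 96.5) was 1.10-fold lower, and the authors' deposited table gives a ratio of exactly 1. Krt15 (5.13 against 7.69) was dim on both arrays, although the authors' deposited table has it 2.02-fold lower. None of these 3 genes was above the array median in either lung. Trim29 was the exception, with 263 against 101, 2.61-fold higher in the depleted lung (log2 1.38). The authors' deposited table has 1.79-fold, below the 2-fold line, and scaled to the hybridization controls the log2 difference was 0.092. Krt5 and Trp63 were lower by more than 2-fold under that scaling, with log2 differences of -1.96 and -1.43, in step with the median of all probe sets at -1.31.

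**Figure D2:**
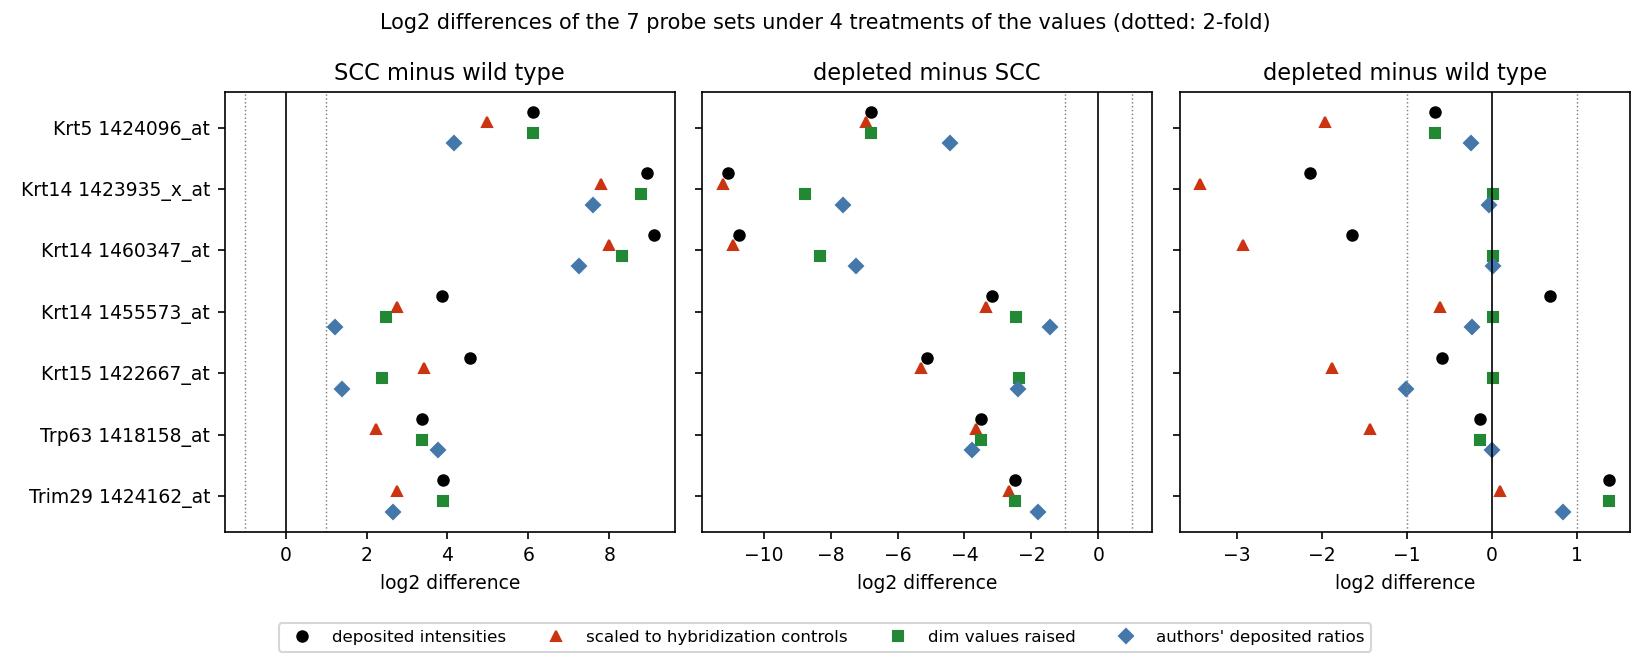
Log2 difference of each probe set in the 3 comparisons, from the deposited intensities, from intensities scaled to the hybridization controls, with the 25th percentile as a floor for dim values, and from the authors' deposited ratios; dotted lines mark 2-fold. In the first 2 comparisons all symbols of a probe set lie on 1 side of 0 and past 2-fold. In depleted minus wild type most lie near or below 0, with the control-scaled symbol of each probe set the lowest. Trim29 there ranges between 0.092 and 1.38.

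The genes most like each of the 5 were found among 2867 named genes that reached the median on their brightest array. Likeness was the distance between pairs of log2 differences from wild type lung, dim values being set to the 25th percentile, and it rests on 3 arrays only. A gene dim in both depleted and wild type lung has a depleted minus wild type difference of 0.0094 by construction. Such genes, Krt14 and Krt15 among them, are placed by their SCC value alone. Nearest to Krt14 were Krt6b (distance 0.15), a keratin of stressed epidermis, Sprr2f (0.35), a cornified envelope precursor, and Krtdap (0.72), a protein of differentiating keratinocytes. All were bright in the SCC lung alone, Krt6b with intensities of 20.8, 16886 and 14.3 in depleted, SCC and wild type lung. Nearest to Krt5 were Klk6 (0.24), a serine protease, Xist (0.31) and Defb3 (0.68), an antimicrobial beta-defensin. Xist, whose level in mouse tissue goes with sex, thus stood beside Krt5 in this measure of 3 arrays.

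Near Krt15 lay Them5 (0.038), Flg (0.064), which encodes the cornified layer protein filaggrin, and Tfap2a (0.070), a transcription factor of epidermis. Tfap2a read 102, 521 and 105 in depleted, SCC and wild type lung. For Trp63 the nearest were Psca (0.15), Pitx1 (0.16), a homeobox transcription factor, and Adamts4 (0.16), a matrix protease, each dim in depleted and wild type lung. Trim29 had other genes near it, which kept part of their signal in the depleted lung, among them Tmem26 (0.079) and Fam20c (0.25), a secretory pathway kinase. Tmem26 read 356, 1888 and 129 in depleted, SCC and wild type lung.

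**Figure D3:**
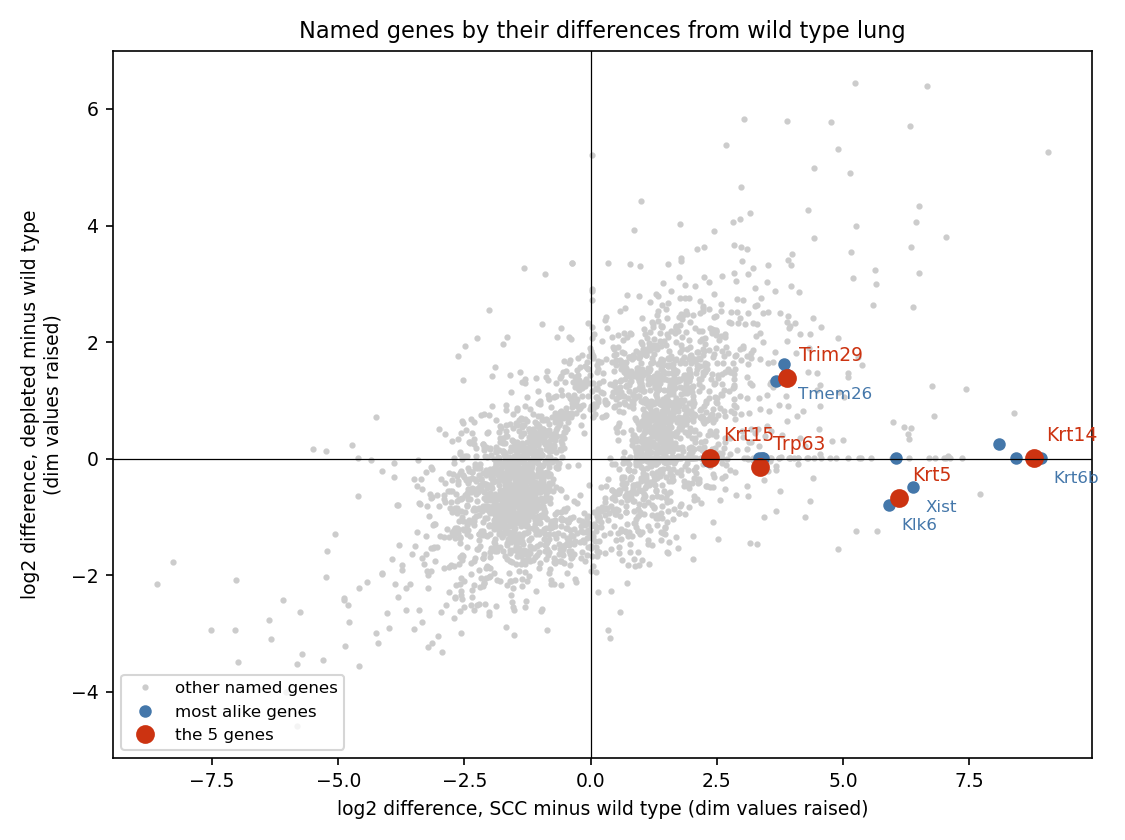
Each point is a named gene, placed by its log2 difference of SCC minus wild type lung (horizontal) and of depleted minus wild type lung (vertical), dim values being set to the 25th percentile; the 5 genes are red, the genes most like them blue. Both axes share the wild type array, and genes dim on both the depleted and wild type arrays lie at 0.0094 on the vertical axis by construction. Krt5, Krt14, Krt15 and Trp63 lie to the right and near or below 0 on the vertical axis, Krt5 beside Xist, and Trim29 lies apart at 1.38 with Tmem26.

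Most named macrophage genes were above wild type in both mutant lungs. Of 10 listed macrophage genes 8 were named, and 6 of these were at least 2-fold above wild type in the depleted lung and 7 in the SCC lung (4 and 7 with equal hybridization control medians). Of all named genes 24.5% were higher in the depleted lung and 37.7% in the SCC lung by that rule. Their summed intensity was 22589, 61671 and 6014 in depleted, SCC and wild type lung, with 0, 1 and 1 members dim. Gpnmb, a glycoprotein of lipid-laden macrophages, read 4131, 21879 and 438, and Cd68, a lysosomal protein of macrophages, read 5553, 14106 and 1645. Cd163, a scavenger receptor, read 101, 2266 and 82.0, so that it was under 2-fold above wild type in the depleted lung. Marco, a scavenger receptor of alveolar macrophages, ran otherwise, with 1289, 12.1 and 8.90, bright in the depleted lung alone, and the receptor gene Cd14 read 5345, 4565 and 897. The part of macrophages in the Trim29 values was not tested.

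Keratin genes lie in clusters on chromosomes 11 and 15, so the genes beside the basal keratins were also read. Of 27 keratin genes on chromosome 11, 7 were named, with 6 at least 2-fold higher and 1 lower in SCC lung than in wild type lung. On chromosome 15, where 5 of 26 were named, 4 were higher and 1 lower. Krt14 and Krt15 are among those named on chromosome 11 and Krt5 among those on chromosome 15, each counted as higher. The counts are thus not of neighbours alone, and nothing is read from them. Over all named genes, which had to differ somewhere to be named, 37.7% were higher and 37.4% lower. Beside Krt14 in gene order lie Krt16 and Krt17, keratins of wounded and fast-dividing epidermis. Krt16 read 4.67, 4861 and 2.37 in depleted, SCC and wild type lung, and Krt17 read 2.86, 4435 and 16.8. Krt19, a keratin of simple epithelium that lies between Krt15 and Krt14, read 1928, 1427 and 3693, lowest in the SCC lung. Krt6a and Krt6b, which lie next to Krt5, were both brightest in the SCC lung, Krt6a with 153, 8563 and 106.

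Next to Trp63 lies Tprg, a gene named for its regulation by p63. It read 8.89, 101 and 27.8 in depleted, SCC and wild type lung, highest in the SCC lung but below the array median there. Lpp, the gene beyond Tprg, read 980, 2035 and 1456, less than 2-fold higher in SCC lung than in wild type lung. None of the 3 coding genes on each side of Trim29 was named.

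Other genes of the basal squamous programme were set beside the 5 by lists. Counts are of named members, and of all 2944 named genes 37.7% were higher and 37.4% lower in SCC lung than in wild type lung by 2-fold or more. The full lists held 16 other squamous keratins, 10 desmosome genes, 15 surface and signalling genes, 17 factors and 12 adhesion genes. Members had to differ somewhere to be named, and those not named are not analysed here, so the counts do not describe whole lists. Of 8 other squamous keratins 7 were higher and 1 was lower (median log2 5.68). Krt16, Krt6b, Krt17 and Krt6a had the largest differences, at least 139.9-fold, at least 485.9-fold, at least 127.6-fold and 81.0-fold. For these the authors' deposited table has smaller values, 135-fold, 190-fold, 94.4-fold and 36.0-fold. The exception, Krt79, read 642, 60.8 and 656 in depleted, SCC and wild type lung.

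Desmosome genes, whose products join keratin filaments of neighbouring cells, went the same way. Of 6 named members 5 were higher in SCC lung and none was lower (median 3.33). Pkp1, a plaque protein, exceeded wild type lung by at least 62.5-fold, against 22.4-fold in the authors' deposited table, and Dsc3, a desmosomal cadherin, at least 15.5-fold. Dsc2 was 18.9-fold higher. Perp, a desmosomal protein and known p63 target, read 826, 6210 and 1161 in depleted, SCC and wild type lung, 5.35-fold above wild type in the SCC lung.

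Surface and signalling genes of basal cells followed with 7 of 8 higher and 1 lower (median 3.07). Sfn, the 14-3-3 sigma protein, exceeded wild type lung by at least 26.65-fold in SCC lung, against 7.08-fold in the authors' deposited table. Serpinb5, the serpin maspin, was 17.2-fold higher, and Aqp3, a water and glycerol channel of basal keratinocytes, 9.91-fold (5.07-fold in the authors' deposited table). The member that was lower was the receptor gene Fgfr3, with 4182, 1251 and 3583 in depleted, SCC and wild type lung.

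Transcription factors were less uniform, with 6 of 9 higher and 1 lower (median 1.57). Pitx1 was at least 10.6-fold higher in SCC lung, Tfap2c at least 3.88-fold, Tfap2a 4.98-fold and Grhl3, a factor of the epidermal barrier, 4.30-fold. The authors' deposited table lists 2.33-fold for Tfap2c and 2.84-fold for Tfap2a. The lower one was Sox2, a factor of airway and squamous epithelium, with 101 in SCC lung against 434 in wild type lung. Adhesion genes of the basement membrane were split, with 3 of 7 higher and 2 lower (median 0.93). Col17a1, the hemidesmosome collagen, was 8.89-fold higher with 49.4, 1200.4 and 135 in depleted, SCC and wild type lung. Lamb3, a laminin chain, and Col7a1, the anchoring fibril collagen, were 2.70-fold and 2.52-fold higher, while Itga3, an integrin subunit, was 2.75-fold lower.

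With equal hybridization control medians, 4.80% of all probe sets were higher and 59.3% lower in SCC lung. The other keratins then had 6 members higher and 1 lower, the desmosome list 4 and 1, the surface and signalling list 5 and 1, the factors 3 and 2, and the adhesion list 1 and 3. The adhesion median changed sign to -0.20, and the other 4 medians stayed above 0, at 4.55, 2.20, 1.94 and 0.44.

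In depleted lung against SCC lung these lists ran the other way. The single SCC array enters this comparison too, and list members had to differ somewhere to be named. The counts below are thus not separate from those of SCC against wild type lung. By the same 2-fold rule 29.6% of all named genes were higher and 26.8% lower. Of the other squamous keratins 7 of 8 were lower and 1 was higher (median -4.89), of the desmosome genes 5 of 6 were lower (median -3.94), and of the surface and signalling genes 6 of 8 were lower and 1 was higher (median -3.08). Among the factors 6 of 9 were lower and 1 was higher (median -2.08), and among the adhesion genes 5 of 7 were lower and none was higher (median -1.40). With dim values set to the 25th percentile the medians of the desmosome, signalling and factor lists were -3.43, -2.98 and -1.95.

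Between depleted and wild type lung, where 24.5% of all named genes were higher and 20.4% lower, these lists depended on the scaling. The other keratins had 1 member higher and 1 lower, the desmosome list 0 and 3, the surface and signalling list 2 and 1, the factors 0 and 3 and the adhesion list 0 and 4. Their medians were 0.42, -0.92, 0.37, -0.67 and -1.27. With equal hybridization control medians, which moved the median of all probe sets to -1.31, they were -0.87, -2.21, -0.92, -1.96 and -2.56. The keratin and signalling medians thus changed sign, and all 9 factors and all 7 adhesion genes were at least 2-fold lower. With dim values set to the 25th percentile none of the factors was at least 2-fold apart, and the keratin median was 0.0094.

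**Figure D4:**
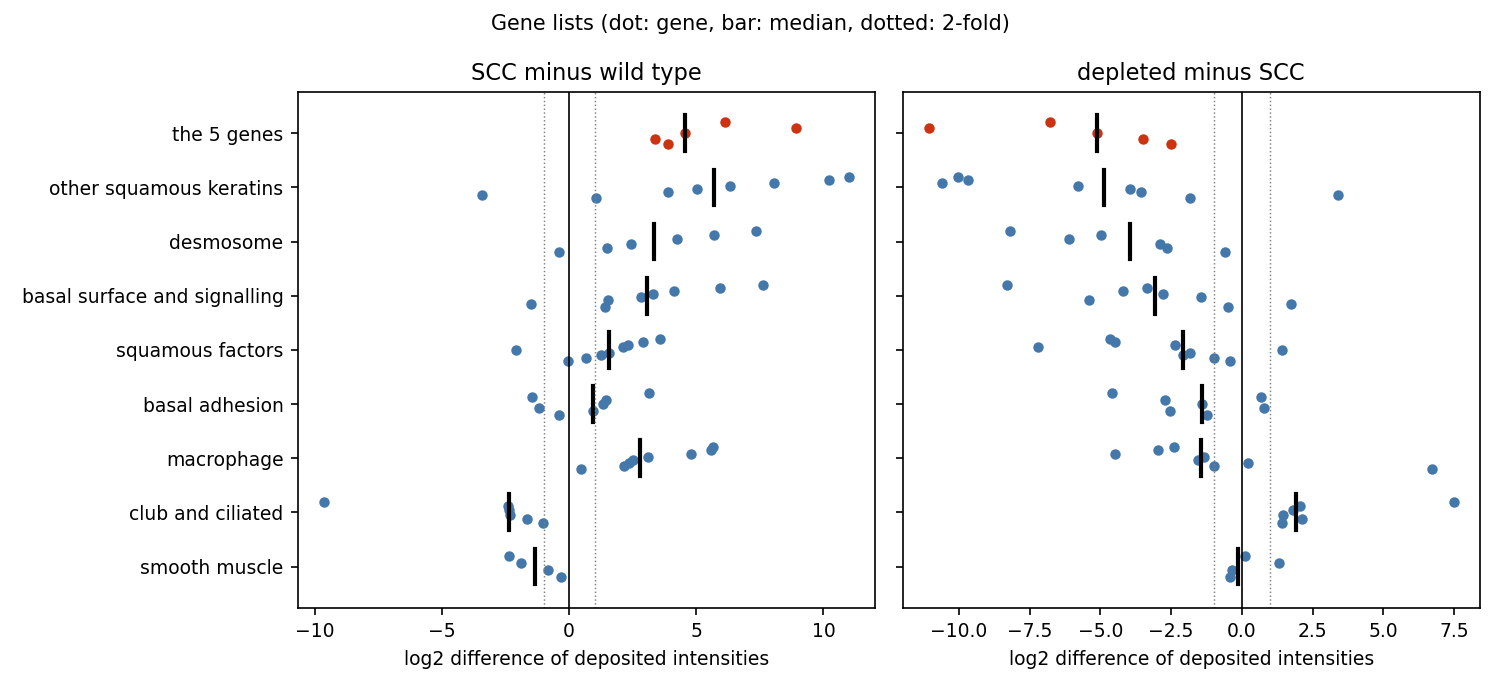
Log2 difference of each named list member (dots) for SCC minus wild type lung and depleted minus SCC lung, from the deposited intensities, with the list median as a bar and dotted lines at 2-fold. The 5 genes (medians 4.55 and -5.13, with dim values as read) lie with the other squamous keratins (5.68 and -4.89), and the club and ciliated list lies on the opposite side (-2.35 and 1.93).

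Genes of other tissues and cells that could hold basal keratins were read as well. Of 16 hair follicle genes 1 was named, Tchh, with 5.79, 62.5 and 37.1 in depleted, SCC and wild type lung, below the median on all arrays. Of 10 thymus genes 1 was named, the T cell gene Cd8b1, with 574, 192 and 70.7. Of 10 skeletal muscle genes, which also mark the wall of the mouse oesophagus, 1 was named, Ckm, with 224, 108 and 1365. None of these was brightest in the SCC lung except Tchh, and the members that were not named are not analysed here. Smooth muscle and myoepithelial genes had 4 of 7 named members and summed to 6714, 6893 and 12181, with no member dim.

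The named airway genes of lung epithelium were lower in the SCC lung. Of all named genes 37.4% were at least 2-fold lower there than in wild type lung. Of 10 club and ciliated genes 6 were named, all at least 2-fold lower in SCC lung than in wild type lung (5 with each array divided by its median), and they summed to 48004, 13352 and 48528 in depleted, SCC and wild type lung, with 0, 1 and 0 members dim. Bpifa1, a secreted protein of the airway lining, had the largest difference, with 3080, 17.2 and 13617, at least 384-fold lower in SCC lung than in wild type lung. Dynlrb2, a dynein light chain of cilia, read 1905, 458 and 2421. Of 10 alveolar genes 3 were named and 1 of these was at least 2-fold lower in the SCC lung than in wild type lung. That is near the share of all named genes, so nothing is read from it. All 3 alveolar genes were at least 2-fold lower with quantile normalization, with equal hybridization control medians and in the authors' deposited tables. With equal control medians 59.3% of all probe sets were lower by that much. Hopx, a factor of alveolar type I cells, read 19027, 6949 and 13731. Their part in the values of the basal genes was not tested.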

How the data were processed

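The authors deposited 1 linear intensity for each probe set on each array, with summary and scaling not given in the sources used here. Per the submitters' processing notes Partek was used (no version). The authors' deposited comparison tables hold the ratio of each pair of arrays, per the file headers. Probe sets were named through those tables (3858 with 1 symbol), under current symbols of RefSeq (GRCm38.p6). Differences are of log2 intensities with no further scaling. A gene took its probe set with the highest mean log2 intensity. Dim values were those below the 25th percentile of non-control probe sets. From each list members were named from among the 4 with the largest difference between SCC and wild type lung, with members singled out afterwards as exceptions, and for each of the 5 genes the 3 most alike; a few genes that fall under these rules are not reported here. The genes and lists were chosen with earlier results of these data known. No p-value was computed. The number of arrays limits the precision. The steps were tested on simulated data. Python 3.11.15, numpy 2.4.6, pandas 2.3.3 and matplotlib 3.10.9 were used.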

Additional observations from a re-analysis of the deposited data

How the results depend on the processing

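Alternatives were other scalings of the arrays, raised dim values, the authors' deposited ratios, other thresholds, a level filter and other choices of probe set; list counts under other scalings and with raised dim values were added after seeing the data. In SCC against wild type and depleted against SCC lung, all 7 probe sets kept their direction and stayed past 2-fold under each scaling, with raised dim values and in the authors' deposited tables. The median over the 5 genes for SCC minus wild type lung, 4.55, was 3.41 with equal control medians, 3.89 with dim values raised and 3.77 in the authors' deposited tables. For depleted minus SCC lung, -5.13 became -3.50 with dim values raised and -3.77 in the authors' deposited tables. Depleted against wild type lung depended on the setting. The 3 probe sets at least 2-fold apart became 5 with equal control medians, 5 at 1.5-fold, and 1 each with dim values raised, in the authors' deposited tables and above the median filter. The median of -0.58 became -1.87 with equal control medians and 0.0094 with dim values raised. The Krt14 probe sets 1423935_x_at and 1460347_at, at -2.14 and -1.64, both became 0.0094 with dim values raised, by construction, and the second was 0.013 in the authors' deposited tables. The cause of the other changes was not tested. No paired analysis was possible because each group had 1 array, and no array could be left out.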

Other observations

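The authors' deposited tables give a ratio of exactly 1 between depleted and wild type lung for 40 of 4276 listed non-control probe sets (0.94%), among them that of Trp63. For the same reason its ratios of SCC lung to depleted lung and of SCC lung to wild type lung are equal there, at 13.6. The same tables have a smaller fold than the intensities for 6 of the 7 probe sets in SCC against wild type lung, each by more than 1.5 times, and for 6 of 7 in depleted against SCC lung (5 where dim values are taken at the 25th percentile, since the fold of Krt15 is then only a bound).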
